A study of Homo sapiens with 6 samples.

Results

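Messenger RNA levels of 8 enzymes that make or use isocitrate, 2-oxoglutarate, 2-hydroxyglutarate and glutamate were followed in SW1353, a human cell line established from a chondrosarcoma. The 8 genes were taken by symbol from the 60691 genes of the deposited count table. They were the NADP+-dependent isocitrate dehydrogenases IDH1 and IDH2, the 3 subunit genes of the NAD+-dependent enzyme (IDH3A, IDH3B and IDH3G), D2HGDH, GLUD1 and GPT2. All 8 matched exactly 1 gene each, and all passed the filter on low counts. RNA was sequenced from 6 libraries, 3 of cells transduced by lentivirus with a firefly luciferase hairpin (shfirefly) and 3 with a hairpin labelled SIRT1 (shSIRT1). The cells of both groups grew at 3% oxygen for the 48 h between seeding and harvest. The series asks how SIRT1, an NAD+-dependent deacetylase, relates to gene expression driven by HIF-2α (the product of EPAS1, a transcription factor of low oxygen) and to malignancy of this tumour. Cells of a single line were used, with 3 biological replicates per group according to the design text, and no group at normal oxygen was among the samples.

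Isocitrate dehydrogenases turn isocitrate into 2-oxoglutarate. IDH1 works in the cytosol and peroxisomes and IDH2 in mitochondria, both yielding NADPH and both able to run in reverse, whereas the IDH3 complex is a mitochondrial step of the tricarboxylic acid (TCA) cycle that yields NADH. IDH3A carries the catalytic subunit, and IDH3B and IDH3G carry subunits that assemble with it and regulate it. Point mutations of IDH1 or IDH2 that produce D-2-hydroxyglutarate are frequent in cartilage tumours, and SW1353 is known to carry an IDH2 mutation of this kind. The deposited counts are per gene and do not separate alleles. D2HGDH oxidises D-2-hydroxyglutarate back to 2-oxoglutarate, GLUD1 deaminates glutamate to 2-oxoglutarate in mitochondria, and GPT2 is the mitochondrial alanine aminotransferase, which passes the amino group of glutamate to pyruvate.

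The sequences upstream of the RefSeq starts of the IDH3 genes are shown because the subunits of this one complex moved by different amounts. The RefSeq start of IDH3A, at base 78149362, lies inside the gene as GENCODE 29 bounds it (78131498 to 78171949), so its stretch does too. The stretches printed for IDH3B and IDH3G lie outside their genes. The 250 bases before the listed starts lie wholly inside the gene for IDH1 and IDH2. For IDH3B, IDH3G, D2HGDH and GLUD1 they do so in part. The sequences come from RefSeq promoter windows on GRCh38.p14, which held an entry for 7 of the 8 genes, GPT2 being the one without. Each is the longest run within the 250 bases before the RefSeq start that lies outside every exon annotated in GENCODE 29. It is written 5′ to 3′ on the gene's strand. Capitals mark the core letters recognised by hypoxia-inducible factors, ACGTG or GCGTG on either strand.
IDH3A (chr15:78149112-78149320, forward strand): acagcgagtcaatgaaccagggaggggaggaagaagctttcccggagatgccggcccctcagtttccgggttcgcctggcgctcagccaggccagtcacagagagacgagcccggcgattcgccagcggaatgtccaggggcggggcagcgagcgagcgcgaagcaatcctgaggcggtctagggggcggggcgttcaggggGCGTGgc
IDH3B (chr20:2664220-2664351, reverse strand): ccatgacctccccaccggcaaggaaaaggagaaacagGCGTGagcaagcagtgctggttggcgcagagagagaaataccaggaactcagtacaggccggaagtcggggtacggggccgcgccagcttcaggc
IDH3G (chrX:153794586-153794625, reverse strand): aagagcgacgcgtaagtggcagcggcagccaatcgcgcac
Over the whole 250 bases the core letters occurred 2 times for IDH3A, 1 time for IDH3B and 3 times for IDH3G, and of the 35116 RefSeq windows of this length 43.2% held them at least 1 time. GLUD1 and IDH2 each had 1 match and D2HGDH had 0. IDH1 has 2 listed starts, whose windows had 1 and 3 matches. The stretches printed hold only some of the matches, 1 for IDH3A, 1 for IDH3B and 0 for IDH3G, the others lying elsewhere in the windows. These matches describe letters only.

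Total counts were 24993064 to 32044191 per library. Levels are given as CPM, the reads of a gene scaled to a common library size, after adjustment by TMM, a method that balances the libraries on the bulk of their genes. SIRT1 itself stood at 24.9 ± 0.984 CPM in shfirefly and 13.6 ± 0.953 CPM in shSIRT1 (SD, n = 3), a log2 change of shSIRT1 over shfirefly of -0.88 ± 0.07 (SE; edgeR adjusted p = 2.3e-09). EPAS1 was at 456 ± 40.8 and 233 ± 10.5 CPM (SD, n = 3; adjusted p = 5.8e-07). The sample titles name SIRT1 as the hairpin's target while the treatment protocol names EPAS1, so these levels cannot tell which gene the hairpin was directed at. Of 16 chondrocyte markers, 12 averaged under 1 CPM over the 6 libraries. Cartilage collagen COL2A1 had 3 counts in all shfirefly libraries together and 30 in the shSIRT1 libraries, and COL9A1 and CNMD had 0 in both groups. Of the 6 markers tested, 3 rose and 2 fell (83.3% called beside 52.8% of all genes tested). SOX9, the cartilage transcription factor, rose and averaged 43.7 and 53.1 CPM. The matrix genes moved in both directions. COL9A2 (0.505 and 1.30 CPM, log2 change 1.35 ± 0.32 SE) and MATN3 (3.78 and 4.81 CPM, 0.35 ± 0.13 SE) rose. HAPLN1 (8.08 and 4.28 CPM, log2 change -0.91 ± 0.12 SE) and ACAN (1.51 and 0.679 CPM, -1.16 ± 0.29 SE) fell. These markers were chosen after their values were seen. The summed level of the 16 markers, most of it SOX9, was 56.5 to 63.0 CPM in shfirefly and 64.96 to 66.2 CPM in shSIRT1, and its part in the results below was not tested. All 10 markers of blood, endothelial and epithelial cells averaged under 1 CPM.

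Of the 8 genes, IDH1, IDH3A and IDH3B rose, IDH2, IDH3G and GPT2 fell, and D2HGDH and GLUD1 did not pass the test (edgeR quasi-likelihood test, Benjamini-Hochberg adjusted p under 0.05 over all genes tested). That is 6 of 8, beside 52.8% of the 16591 genes tested over the whole table, of which 26.8% rose and 26% fell. By mean CPM the 8 genes stood between percentiles 54.6 (D2HGDH) and 93.7 (GLUD1) of the genes tested. When genes needed 1 CPM or more in 3 libraries, 8360 of 13898 were called. The share called among genes of like level was not computed, here or for the lists below. The group ranges did not overlap for the same 6 genes, beside 59.7% of all genes tested (30.4% higher and 29.4% lower). A majority of the genes tested in the main fit differed between the groups, so the share of these enzymes that changed is read against that level. That level depended on the tool and the filter, with 7552 of 19490 genes called with DESeq2 and 8756 of 32875 with no filter on low counts. The median log2 fold change of the 8 was 0.02, against 0.0047 for all genes tested. In absolute size GPT2 changed by more than 92.8% of the tested genes and IDH3A by more than 85.1%, while IDH2 was near the middle (50.7%). In these cultures a lower level from fewer cells that make a transcript and a lower level in every cell cannot be told apart.

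**Figure D1:**
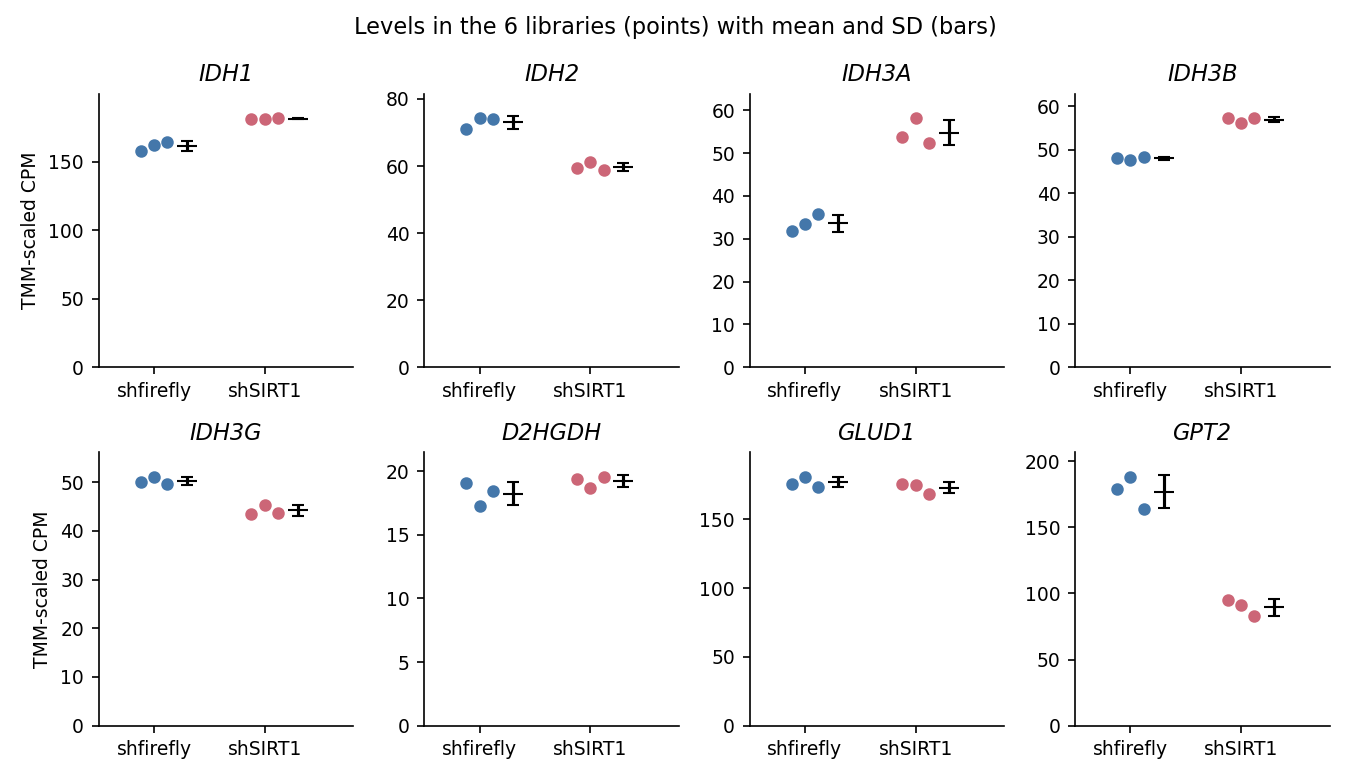
TMM-scaled CPM (vertical axis, from 0) of each gene in the 3 shfirefly (blue) and 3 shSIRT1 (red) libraries, with the mean and SD beside the points. The points of the groups are apart for IDH1, IDH2, IDH3A, IDH3B, IDH3G and GPT2 and overlap for D2HGDH and GLUD1.

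IDH1, the cytosolic enzyme, was slightly higher in shSIRT1. Its level was 158, 163 and 164 CPM in the shfirefly libraries and 181, 181 and 182 CPM in the shSIRT1 libraries. The shSIRT1 libraries lay almost on top of one another and above every control library, with means of 162 ± 3.45 and 181 ± 0.295 CPM (SD, n = 3). The rise was 1.12-fold (log2 change 0.17 ± 0.04 SE, adjusted p = 0.00059). It was 0.29 with scaling by library totals alone. IDH1 lies on chromosome 2 from base 208236227 to 208266074, reverse strand (GRCh38, GENCODE 29). Its antisense neighbour IDH1-AS1 shares 935 bases with it and had 30 counts in shfirefly and 15 in shSIRT1 in all, against 4398 to 5564 counts per library for IDH1.

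IDH2, the mitochondrial NADP+ enzyme and the one mutated in this line, moved the other way. The shfirefly libraries had 70.9, 74.2 and 73.9 CPM and the shSIRT1 libraries 59.4, 61.1 and 58.7 CPM. Every shSIRT1 library was below every control, and the mean went from 73.0 ± 1.82 to 59.7 ± 1.22 CPM (SD, n = 3), 1.22-fold lower (log2 fold change -0.29 ± 0.04 SE, adjusted p = 1.3e-05). The change was -0.18 (adjusted p = 0.0022) once an offset for GC content and transcript length was fitted and -0.17 (adjusted p = 0.003) with library totals alone. IDH2 lies on the reverse strand of chromosome 15 (90083045 to 90102504), and no annotated gene overlaps it.

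Both NADP+ enzymes can be set against each other within a library, which needs no scaling between libraries. Such a ratio does not take out an effect of GC content or length that differs between libraries. Transcripts of IDH1 average 45.9% GC and those of IDH2 57.2%. With the offset for GC content and length IDH1 changed by 0.17 and IDH2 by -0.18. The log2 ratio of IDH1 to IDH2 CPM was 1.15, 1.13 and 1.15 in shfirefly and 1.61, 1.57 and 1.63 in shSIRT1. The ratio was thus 1.37-fold higher in shSIRT1, a difference of 0.46 ± 0.02 (SE) with groups far apart compared with their spread. An exact two-sided permutation test gave p = 0.1 (adjusted p = 0.1 over the 6 ratios tested), the smallest value that 3 against 3 libraries allow. Per transcript length, IDH1 made up 72.0% ± 0.173 of the summed level of both genes in shfirefly and 77.9% ± 0.359 in shSIRT1 (SD, n = 3). On the length of the union of all exons the IDH1 share was 56.9% ± 0.210 and 64.4% ± 0.478 (SD, n = 3). The size of this share thus depended on the length used and its direction did not.

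IDH3A, the catalytic subunit of the NAD+ enzyme, had the largest rise of the 8 genes. It was at 31.7, 33.5 and 35.7 CPM in shfirefly and at 53.8, 58.1 and 52.5 CPM in shSIRT1. The lowest shSIRT1 library was far above the highest control, and the mean went from 33.6 ± 2.02 to 54.8 ± 2.96 CPM (SD, n = 3), 1.63-fold higher (log2 change 0.70 ± 0.06 SE, adjusted p = 1.3e-09). IDH3A lies on chromosome 15 from base 78131498 to 78171949, forward strand. It overlaps the lincRNA AC090260.1 on the same strand over 1931 bases and ACSBG1 and CIB2 on the other strand, so reads in the stretch shared with AC090260.1 cannot be assigned by strand, and those shared with ACSBG1 and CIB2 can be only if the counting used strand, which the sources do not state.

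IDH3B rose by less. Its levels were 48.2, 47.6 and 48.3 CPM in shfirefly and 57.2, 56.2 and 57.2 CPM in shSIRT1. The libraries of a group differed little, with means of 48.0 ± 0.332 and 56.8 ± 0.586 CPM (SD, n = 3), 1.18-fold higher (log2 change 0.24 ± 0.05 SE, adjusted p = 0.00015). IDH3B is on chromosome 20 (2658395 to 2664219, reverse strand).

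IDH3G, the other regulatory subunit, was lower in shSIRT1, but the call rested on the scaling. It had 49.96, 51.1 and 49.6 CPM in shfirefly and 43.5, 45.4 and 43.7 CPM in shSIRT1, groups that did not overlap. The mean went from 50.2 ± 0.794 to 44.2 ± 1.04 CPM (SD, n = 3), 1.14-fold lower (log2 fold change -0.18 ± 0.05 SE, adjusted p = 0.0032). The change was -0.06 (adjusted p = 0.28) with library totals alone and -0.02 (adjusted p = 0.76) with the offset for GC content and length. Transcripts of IDH3G average 59.8% GC, against 47.5% for IDH3A and 54.5% for IDH3B. IDH3G is on the reverse strand of chromosome X (153785766 to 153794523) and overlaps SSR4 on the other strand over 1008 bases.

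Within libraries the IDH3 subunits shifted against each other. IDH3A to IDH3G went from log2 ratios of -0.66, -0.61 and -0.47 in shfirefly to 0.31, 0.36 and 0.26 in shSIRT1. Every shSIRT1 library was above every control, a 1.85-fold change of the ratio (difference 0.89 ± 0.06 SE). The IDH3A to IDH3B ratio was 1.38-fold higher (0.46 ± 0.07 SE), with values of -0.60, -0.51 and -0.43 in shfirefly and -0.09, 0.05 and -0.12 in shSIRT1. The third pair, IDH3B to IDH3G, was at -0.05, -0.10 and -0.04 in shfirefly and at 0.40, 0.31 and 0.39 in shSIRT1, 1.34-fold higher (0.43 ± 0.03 SE). Groups did not overlap for any of these ratios, and each had p = 0.1 in the exact two-sided permutation test. As a share of the 3 subunits' summed level per transcript length, IDH3A stood at 30.8% ± 1.32 in shfirefly and 41.4% ± 1.19 in shSIRT1, while IDH3G stood at 37.0% ± 0.918 and 26.9% ± 0.210 (SD, n = 3). On the length of the union of all exons the IDH3A share was 11.7% ± 0.640 and 17.3% ± 0.720, so the size of this share depended on the length used and its direction did not. The IDH3B share turned with the length, from 32.3% ± 0.604 to 31.6% ± 1.103 on the mean transcript length, with groups that overlapped, and from 44.4% ± 0.491 to 47.7% ± 1.07 on the union of all exons (SD, n = 3).

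**Figure D2:**
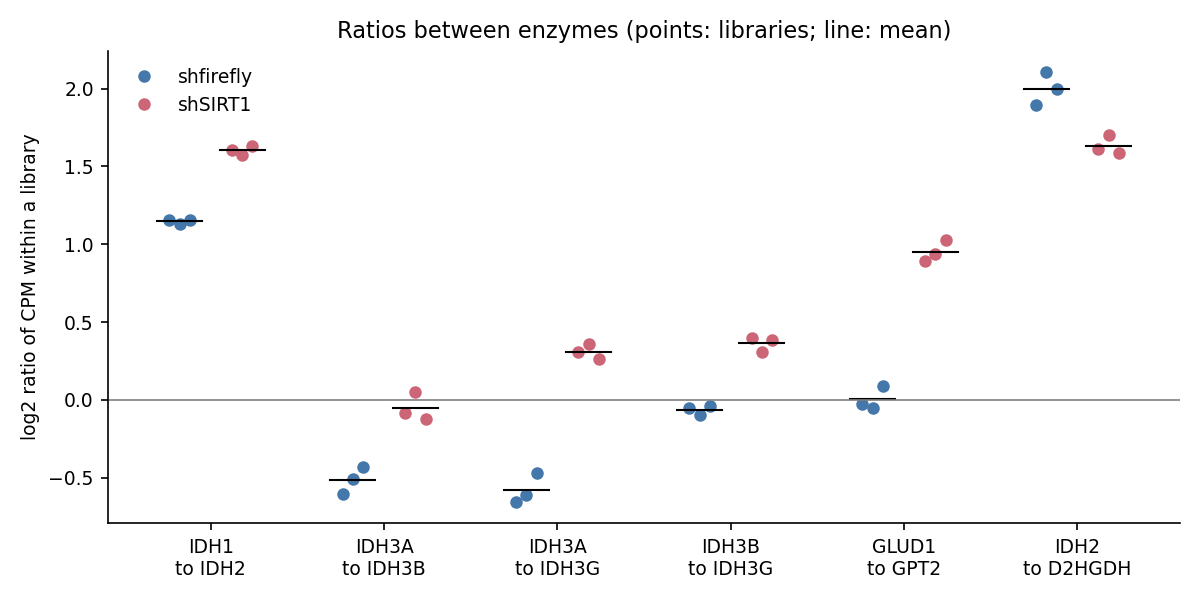
Log2 ratio of the CPM of 2 genes within a library (vertical axis) for 6 pairs on the horizontal axis, with shfirefly libraries in blue, shSIRT1 libraries in red and the group mean as a line. The groups are apart for each of the 6 ratios, and IDH3A to IDH3G goes from a mean of -0.58 to 0.31.

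D2HGDH, the enzyme that removes D-2-hydroxyglutarate, had the lowest level of the 8 per transcript length. It was at 19.1, 17.2 and 18.5 CPM in shfirefly and 19.4, 18.7 and 19.6 CPM in shSIRT1, from 466 to 596 counts per library. The groups overlapped, with means of 18.2 ± 0.924 and 19.2 ± 0.450 CPM (SD, n = 3) and a log2 fold change of 0.07 ± 0.07 SE (adjusted p = 0.40). The gene passed the test with the offset for GC content and length (log2 fold change 0.28, adjusted p = 0.0022) and with library totals alone (0.20, adjusted p = 0.027). Its transcripts average 63.8% GC, the highest of the 8 genes. D2HGDH is on chromosome 2 (241734579 to 241768816, forward strand) and overlaps 2 antisense genes, AC114730.1 and AC114730.2. The log2 ratio of IDH2 to D2HGDH, which sets the enzyme that is mutated in this line beside the one that clears its product, was 1.90, 2.11 and 2.00 in shfirefly and 1.61, 1.71 and 1.58 in shSIRT1. It was 1.29-fold lower in shSIRT1 (difference -0.37 ± 0.07 SE, exact two-sided permutation p = 0.1).

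GLUD1, the mitochondrial glutamate dehydrogenase, did not pass the test. It had 176, 181 and 174 CPM in shfirefly and 176, 175 and 168 CPM in shSIRT1. The groups overlapped, with means of 177 ± 3.66 and 173 ± 4.09 CPM (SD, n = 3) and a log2 fold change of -0.03 ± 0.04 SE (adjusted p = 0.51). With library totals alone the sign turned, to 0.09 (adjusted p = 0.032). GLUD2, a near-identical intronless copy, had 70 counts in shfirefly and 63 in shSIRT1, (log2 change -0.14 ± 0.33 SE, adjusted p = 0.74), and the pseudogenes GLUD1P2 and GLUD1P3 had 18 and 17 and 90 and 99. Reads shared with these copies could have been counted for either gene, and the counts listed for GLUD2 were 0.431% of those for GLUD1. GLUD1 lies on chromosome 10 from base 87050486 to 87094866, reverse strand, and overlaps SHLD2 on the other strand over 706 bases.

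GPT2, the alanine aminotransferase of mitochondria, had the largest change of the 8. The shfirefly libraries had 179, 188 and 163 CPM and the shSIRT1 libraries 95.1, 91.3 and 82.6 CPM. The highest shSIRT1 library was far below the lowest control. Means were 177 ± 12.5 and 89.6 ± 6.41 CPM (SD, n = 3), 1.97-fold lower (log2 fold change -0.98 ± 0.06 SE, adjusted p = 1e-08). Its cytosolic paralog GPT had 26 counts in all shfirefly libraries and 19 in the shSIRT1 libraries and did not pass the filter on low counts, so nearly all alanine aminotransferase reads were from GPT2. The log2 ratio of GLUD1 to GPT2 was -0.02, -0.06 and 0.09 in shfirefly and 0.89, 0.94 and 1.03 in shSIRT1. That was a 1.93-fold shift (difference 0.95 ± 0.06 SE, exact two-sided permutation p = 0.1). GPT2 is on the forward strand of chromosome 16 (46884378 to 46931297) with no overlapping annotated gene.

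**Figure D3:**
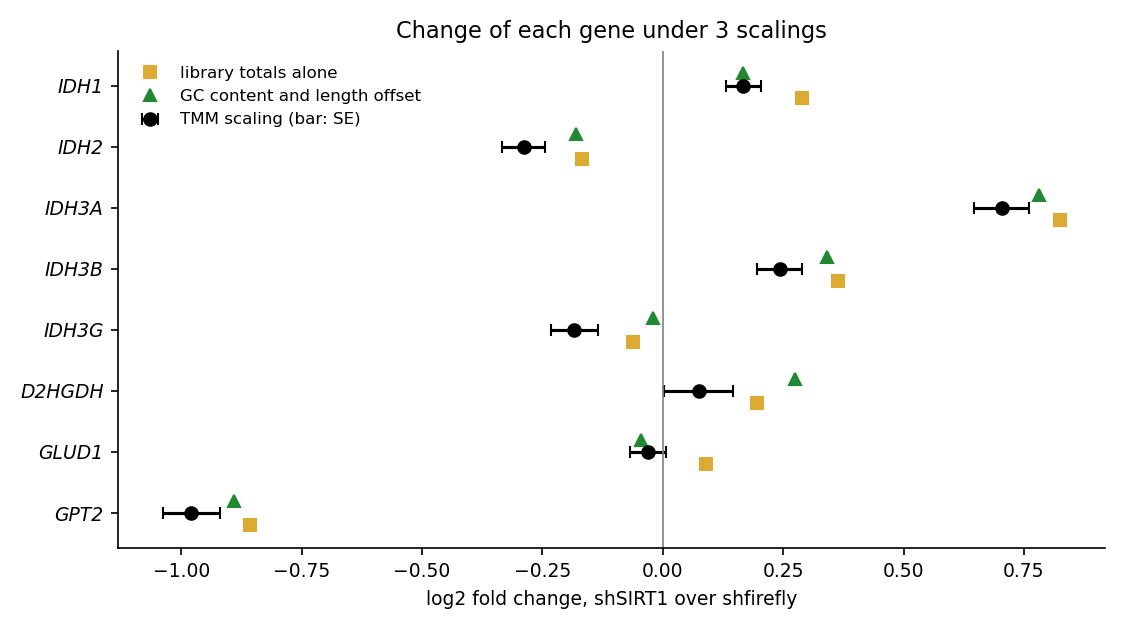
Log2 fold change of shSIRT1 over shfirefly (horizontal axis) for the 8 genes, with TMM scaling in black (bars are SE), library totals alone in yellow and the offset for GC content and length in green. GPT2, IDH1, IDH2, IDH3A, IDH3B and D2HGDH keep their side under each of the 3 scalings. Away from TMM scaling, IDH3G comes close to 0 and D2HGDH lies further from 0. GLUD1 changes sign with library totals alone.

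Levels of different genes were ranked per transcript length, as CPM per kilobase of the mean annotated protein-coding transcript. In shfirefly the order was IDH1 (104 ± 2.22), GPT2 (60.5 ± 4.27), GLUD1 (58.2 ± 1.21), IDH3G (40.4 ± 0.639), IDH2 (40.4 ± 1.01), IDH3B (35.2 ± 0.244), IDH3A (33.6 ± 2.01) and D2HGDH (17.5 ± 0.886; SD, n = 3). GPT2 and GLUD1, IDH3G and IDH2, and IDH3B and IDH3A overlapped between libraries. In shSIRT1 IDH1 was again highest (117 ± 0.190), followed by GLUD1 (57.0 ± 1.35) and IDH3A (54.7 ± 2.95), which overlapped, then IDH3B (41.7 ± 0.430), IDH3G (35.5 ± 0.832), IDH2 (33.03 ± 0.673), GPT2 (30.7 ± 2.19) and D2HGDH (18.4 ± 0.432; SD, n = 3). IDH2 and GPT2 overlapped there too. IDH3A thus went from rank 7 to rank 3 and GPT2 from rank 2 to rank 7. On the union of all exons, GLUD1 ranked 1 and IDH1 ranked 2 in both groups, and IDH3A ranked 7 in both. D2HGDH ranked 8 in both groups on either length.

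The genes whose profile over the 6 libraries lay closest to IDH1 among 10802 candidates were ACTR2, MTMR9 and PSMD14, and those closest to IDH2 were FUNDC2, DUSP3 and APMAP. ACTR2 encodes a subunit of the actin-nucleating Arp2/3 complex and PSMD14 a deubiquitinase of the proteasome. Pearson's r of log2 CPM was 0.997, 0.995 and 0.988 for the former and 1.00, 1.00 and 0.999 for the latter, over 6 libraries that share the group difference. ACTR2 had a log2 fold change of 0.19 ± 0.03 SE, but 0.02 (adjusted p = 0.72) with the offset for GC content and length, so its likeness to IDH1 (0.17 with that offset) did not extend to that setting. MTMR9 (0.19 ± 0.06 SE, adjusted p = 0.013) did not pass with DESeq2 (adjusted p = 0.053), with that offset (0.2) or without shfirefly replicate 1 (0.076). DUSP3, a phosphatase gene, had a log2 fold change of -0.31 ± 0.04 SE (adjusted p = 9.7e-07). Its closeness to IDH2 follows from the choice by distance in the same libraries, as do the high r values. With the offset for GC content and length, FUNDC2 was at -0.41, DUSP3 at -0.28 and APMAP at -0.21, beside -0.18 for IDH2.

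Of 16 other enzymes of the TCA cycle, 9 rose, 2 fell and 5 did not pass. That is 68.8% called beside 52.8% of all genes tested (26.8% higher and 26% lower), with a median log2 fold change of 0.17 beside 0.0047 for all genes tested. Fumarase (FH) rose from 62.3 ± 4.17 to 93.8 ± 5.94 CPM (SD, n = 3; log2 change 0.59 ± 0.05 SE). OGDH, the subunit of the next complex in the cycle after IDH3 that binds 2-oxoglutarate, rose from 134 ± 4.004 to 196 ± 4.40 CPM (SD, n = 3; log2 change 0.55 ± 0.04 SE). The members that fell were SUCLG2, the GTP-forming subunit of succinyl-CoA ligase (-0.33 ± 0.04 SE), and the cytosolic aconitase ACO1 (-0.19 ± 0.04 SE). With library totals alone ACO1 was at -0.07 (adjusted p = 0.11) and only SUCLG2 fell.

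Genes that take up the nitrogen of glutamine or interconvert glutamate moved in both directions. Of 21 tested among 24 listed, 12 rose, 4 fell and 5 did not pass (76.2% called beside 52.8% of all genes, median log2 fold change 0.24). GFPT1, the entry enzyme of hexosamine synthesis and 1 of the 12 (0.09 ± 0.04 SE, adjusted p = 0.042), was called lower with the offset for GC content and length. Its call was lost with DESeq2, with its size factors, with both other filters and without any 1 library. BCAT2 and GFPT2, which fell, lost their calls with that offset; these 3 were singled out after their values were seen. CTPS1, which uses glutamine to make CTP, rose 2.07-fold (log2 fold change 1.05 ± 0.06 SE). Those that fell the most were ASNS, asparagine synthetase (3.20 ± 0.820 to 1.496 ± 0.408 CPM, SD, n = 3; log2 change -1.09 ± 0.22 SE), and PSAT1, the aminotransferase of serine synthesis, which like GPT2 forms 2-oxoglutarate from glutamate (-0.42 ± 0.04 SE). The aspartate aminotransferases GOT2 and GOT1 were chosen after their values were seen. GOT2, in mitochondria, rose (0.48 ± 0.04 SE, adjusted p = 1.3e-09), while cytosolic GOT1 was at 0.03 ± 0.05 SE (adjusted p = 0.66).

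**Figure D4:**
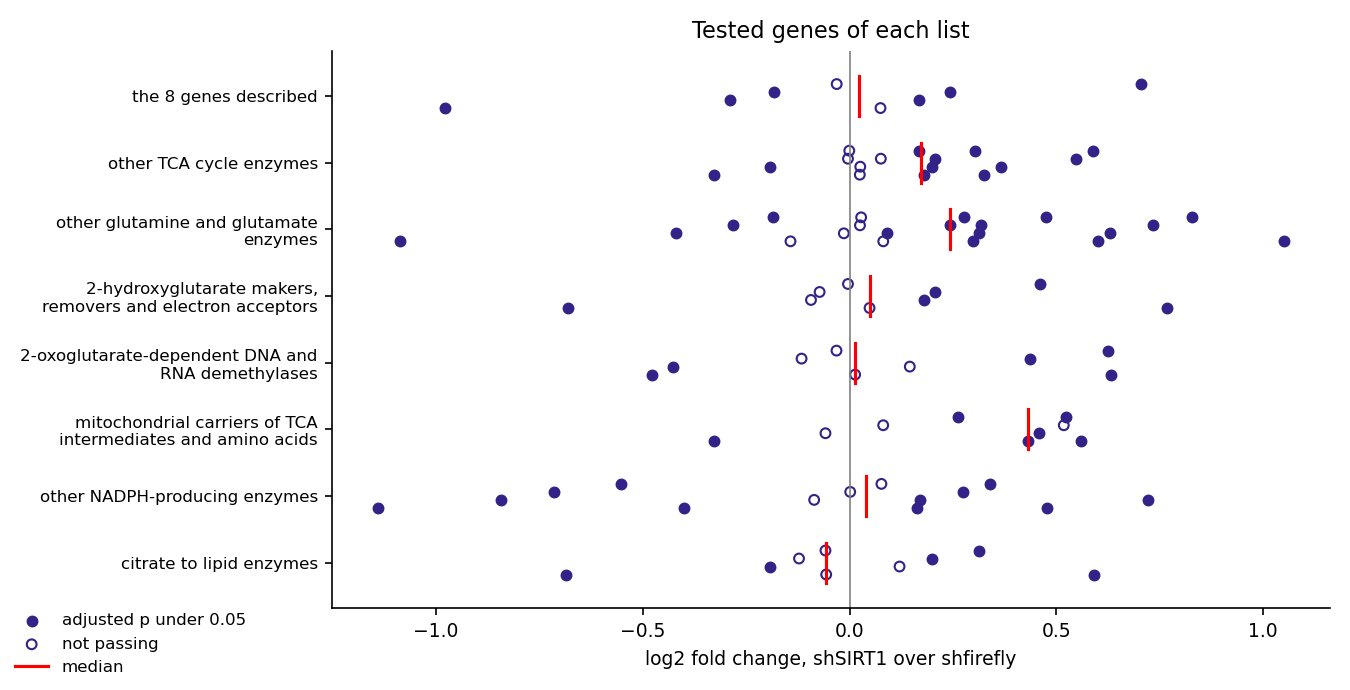
Log2 fold change of shSIRT1 over shfirefly (horizontal axis) for every tested gene of the 8 genes described and of 7 lists of neighbouring enzymes, with filled points past an adjusted p of 0.05 and a red line at the list's median. The medians run from -0.06 for enzymes from citrate to lipid to 0.43 for mitochondrial carriers, and each list has called genes on both sides of 0.

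Genes that make or remove 2-hydroxyglutarate or take up the electrons of its oxidation were a further list. Of 9 tested among the 10 listed, 4 rose, 1 fell and 4 did not pass (median log2 fold change 0.05), and the 55.6% called was near the 52.8% of all genes tested. PHGDH, the entry enzyme of serine synthesis that can also reduce 2-oxoglutarate, fell from 137 ± 5.77 to 85.5 ± 4.62 CPM (SD, n = 3; log2 change -0.68 ± 0.05 SE). LDHB, a lactate dehydrogenase, had 3.29 ± 0.763 and 4.54 ± 0.102 CPM (SD, n = 3; adjusted p = 0.018), a rise whose call was lost without shfirefly replicate 2 (adjusted p = 0.09), without shfirefly replicate 3 (0.063), without shSIRT1 replicate 2 (0.054), without both libraries numbered 3 (0.081) and with DESeq2 (0.066). With the replicate number as a block 2 members fell, LDHA joining PHGDH. ADHFE1, a further source of D-2-hydroxyglutarate, had 12 counts in shfirefly and 10 in shSIRT1 in all and was not tested.

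Of 9 DNA and RNA demethylases and related enzymes that use 2-oxoglutarate, 3 rose, 2 fell and 4 did not pass. Enzymes of this class can be inhibited by 2-hydroxyglutarate. Their median log2 fold change was 0.01. The 55.6% called was again near the share of all genes. The 5-methylcytosine oxidases TET1 and TET3 moved in opposite directions. TET1 went from 4.25 ± 1.15 to 6.60 ± 0.0954 CPM (SD, n = 3; log2 change 0.63 ± 0.15 SE) and TET3 from 65.7 ± 1.47 to 47.2 ± 0.223 CPM (SD, n = 3; -0.48 ± 0.05 SE). ALKBH8, a tRNA-modifying enzyme that is not a demethylase, rose (0.62 ± 0.10 SE). ALKBH5, an eraser of N6-methyladenosine, fell (-0.43 ± 0.04 SE). With library totals alone 5 members rose.

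Of 9 mitochondrial carriers of TCA intermediates and amino acids tested, 5 rose, 1 fell and 3 did not pass. That is 66.7% called beside 52.8% of all genes tested, with a median log2 fold change of 0.43. The dicarboxylate carrier SLC25A10 (0.56 ± 0.15 SE) and MPC1, a subunit of the pyruvate carrier (0.52 ± 0.10 SE), rose the most. MPC2, the partner of MPC1 in that carrier, fell (-0.33 ± 0.05 SE). The calls of these carrier subunits were opposite with library totals alone and with the offset for GC content and length as well. The fall of IDH3G among the IDH3 subunits was not called in either of those settings. For enzymes leading from citrate to lipid, 3 of 9 rose, 2 fell and 4 did not pass (median log2 fold change -0.06). The 55.6% called was near the 52.8% of all genes tested. Fatty acid synthase FASN rose (0.59 ± 0.04 SE), as did acetyl-CoA carboxylase ACACA (0.31 ± 0.04 SE), and the desaturase SCD fell from 2413 ± 158 to 1501 ± 70.3 CPM (SD, n = 3; -0.69 ± 0.05 SE). With the offset for GC content and length 5 rose, and with library totals alone 1 fell. Some genes, MDH1 and MDH2 among them, stood in 2 of the lists, so the lists are not independent of each other.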

How the data were processed

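The table gives read counts per gene for 6 libraries, deposited by the authors as raw counts, with no unassigned row. Trimmomatic, STAR, DESeq2 and the build GRCh38 are named in the submitters' processing notes. Versions, the read counter, the annotation and the strand setting were not given in the sources used here. The kit, TruSeq Stranded mRNA, marks strand, per the labels' protocols. The authors' log2 fold change and adjusted p-value in the deposited table were read only for the 8 genes and are not printed. A further 6 columns of normalized values per library were not used. Columns were matched to samples by name and number. Control columns carry the word Ctrl, taken as shfirefly.

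Counts were filtered with filterByExpr (16591 of 60691 genes), scaled by TMM (factors 0.948 to 1.05) and tested with edgeR 4.0.16 in R 4.3.3 (estimateDisp, robust glmQLFit, glmQLFTest) on group alone, with Benjamini-Hochberg adjustment over all genes tested. Each SE is approximate, the size of the log2 change over the root of its F statistic. Within-library ratios were tested by exact permutation, two-sided. Coordinates, lengths and GC content were taken from GENCODE 29 (GRCh38) through the Ensembl identifiers, their versions dropped, and promoter windows from RefSeq. The procedure was tested on simulated counts in which few genes changed, as many up as down. In the data themselves a majority of the genes tested were called, so that simulation does not bear on the choice of scaling. The smallest count of the 8 genes in any library was 466.

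The 8 genes, the lists and the rules were chosen with earlier results of these data known. Named genes are SIRT1, EPAS1, the 8, up to 2 rising and 2 falling called genes with the largest change per list, close paralogs, and the 3 genes nearest to IDH1 and to IDH2 by Euclidean distance of centred log2 CPM (prior 0.5) over 6 libraries, among genes averaging at least 5 CPM. Some genes that this rule names are not reported here. Alternatives were other size factors, library totals alone, DESeq2 1.42.0, 2 other filters, a replicate block, an offset from natural splines (5 degrees of freedom) of GC content and log length per library (99.1% of tested genes had both), and leaving out libraries. No pair of libraries agreed within sampling noise (chi-square per gene 2.82 to 6.10 within groups and 57.4 to 89.7 between them), so each counted as 1 replicate. Deviations from group means correlated between libraries with the same number (r = 0.17, 0.12 and 0.42 for numbers 1, 2 and 3, over 10810 genes). No label says that the numbers pair the samples. The main fit and the ratio tests took no account of a pairing, and only the replicate block did. Numbers 1 and 2 were not told apart by this correlation (r = 0.174 for shfirefly 2 with shSIRT1 1 and 0.144 for shfirefly 1 with shSIRT1 2).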

Additional observations from a re-analysis of the deposited data

How the results depend on the processing

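The members' counts of 3 higher and 3 lower held with DESeq2 and its size factors in edgeR, with both other filters, with the replicate block and without any 1 library or both numbered 3. With library totals alone, which put the median gene of the whole table at a log2 change of 0.13, 5 were higher and 2 lower, and the log2 change of GLUD1 reversed from -0.03 to 0.0901 (adjusted p = 0.032). Under that scaling 1 other TCA enzyme fell in place of 2, and 1 citrate-to-lipid enzyme fell in place of 2. In the list with the demethylases 5 rose in place of 3. That scaling also moved the calls over all genes from 4449 higher and 4311 lower to 6225 and 3021. With the offset for GC content and length 4 members were higher and 2 lower, and 5 citrate-to-lipid enzymes rose in place of 3. In the 2-hydroxyglutarate list, 2 rose in place of 4 with DESeq2 and without both libraries numbered 3, and 2 fell in place of 1 when genes needed 1 CPM or more in 3 libraries and with the replicate block. Leaving out 1 library gave 2 to 4 higher and 1 to 2 lower in that list. The replicate block changed no call of the 8 genes (IDH3G adjusted p = 0.0017, IDH1 0.00013). It also added TET2 among the demethylases and ACSS2 among the citrate-to-lipid enzymes. MTHFD2L lost its call with DESeq2 (adjusted p = 0.11), the GC and length offset (0.15) and without shfirefly replicate 1 (0.11), shfirefly replicate 2 (0.095), shSIRT1 replicate 1 (0.11) or shSIRT1 replicate 3 (0.12). The causes were not tested. On the union of all exons, shfirefly levels in CPM per kilobase were 34.2 for IDH1, 25.9 for IDH2, 4.93 for IDH3A, 18.7 for IDH3B, 18.5 for IDH3G, 3.46 for D2HGDH, 50.3 for GLUD1 and 27.8 for GPT2, each lower because that length is greater.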

Other observations

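NADPH-producing enzymes other than IDH1 and IDH2 moved in both directions. Of 14 tested, 6 rose, 5 fell and 3 did not pass (78.6% called beside 52.8% of all genes, median log2 fold change 0.04). With the offset for GC content and length 4 rose and 7 fell, ME1 and NNT joining the lower ones, and with library totals alone 8 rose and 5 fell, ME1 and ME2 joining the higher ones. The grouping by compartment below was chosen after the values were seen and is a description. In the cytosol, where IDH1 rose, the one-carbon enzyme MTHFD1 rose from 86.5 ± 6.67 to 143 ± 9.67 CPM (SD, n = 3; log2 change 0.72 ± 0.06 SE), and the pentose phosphate enzyme PGD rose (0.34 ± 0.04 SE). The exceptions there were ALDH1L1, a formyltetrahydrofolate dehydrogenase, which fell (-0.84 ± 0.10 SE), and malic enzyme ME1, at 0.0014 ± 0.04 SE. In mitochondria, where IDH2 fell, the malic enzyme ME3 fell from 4.61 ± 0.156 to 2.09 ± 0.0840 CPM (SD, n = 3; -1.14 ± 0.15 SE), and the one-carbon enzymes ALDH1L2 (-0.71 ± 0.04 SE) and MTHFD2 (-0.55 ± 0.05 SE) fell. MTHFD2L, also mitochondrial, rose (0.48 ± 0.18 SE, adjusted p = 0.031), but its groups overlapped and the call was lost in 6 settings. The mitochondrial NAD kinase NADK2 also rose (0.17 ± 0.07 SE, adjusted p = 0.044), with overlapping groups and a call lost in 8 settings, DESeq2 and the offset among them. ME2 and the transhydrogenase NNT did not pass the test (0.08 ± 0.05 and -0.09 ± 0.05 SE). The cytosolic NAD kinase NADK rose (0.27 ± 0.05 SE), and H6PD, in the endoplasmic reticulum, fell (-0.40 ± 0.05 SE).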
